A study of Mus musculus with 18 samples.

Results

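Ferroptosis and iron genes were followed in 18 RNA-seq samples of mouse small cell lung cancer cells in which p53 had been left off or switched back on. The set was given as a list of names, Slc7a11, Slc3a2, Gpx4, Aifm2, Acsl4, Tfrc, Fth1, Ftl1, Gls2 and Sat1, and all 10 were found among the 25239 genes of the deposited table. All 10 were also among the 12828 genes that passed the filter for testing, which kept genes that reached 1 TPM in 3 or more of the 18 samples. TPM (transcript abundance scaled to a fixed total per sample) divides reads by transcript length, so levels of different genes can be set beside each other.

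Samples came from 3 Type D lines, 4711-1, 4711-18 and 4716-11, which the study derived from separate tumors of mice with floxed Rb1 and Rbl2, the Trp53 XTR allele and Rosa26 FlpO-ERT2. Cre given by an adenoviral vector had deleted Rb1 and Rbl2 and trapped Trp53 in every sample, controls included. Each line carried Cas9 with a guide against beta-galactosidase (sgBgal, the control guide) or with 1 of the guides sgPpia#3.2 and sgPpia#4.1 against Ppia, the gene of cyclophilin A. Each of these 9 populations was sampled after vehicle (Control) and after 72 h of 4-hydroxytamoxifen (4-OHT, Restored), which reopens Trp53. The 6 conditions therefore held 3 samples each, 1 culture per cell line, and the replicate error is the spread between lines. The sources used here do not say whether the 2 lines numbered 4711 share a mouse.

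Ferroptosis is a form of cell death in which iron drives the peroxidation of polyunsaturated membrane phospholipids. Cells hold it back with glutathione, made from imported cystine and used by Gpx4, and with radical-trapping lipids kept reduced by Aifm2. Iron enters bound to transferrin and is stored in ferritin, and p53 is known to act on cystine import, glutaminase and polyamine breakdown through Slc7a11, Gls2 and Sat1.

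Trp53 read 5.45 to 8.41 TPM in the 9 Control samples and 181 to 236 TPM in the 9 Restored samples, so the restoration labels held in every line. Ppia averaged 2709 ± 137 TPM (SD, n = 3) in sgBgal Control samples, 979 ± 287 TPM with sgPpia#3.2 and 1783 ± 147 TPM with sgPpia#4.1, so transcript remained with both guides. Of 7 neuroendocrine markers, 3 reached a median of 1 TPM, Syp (3.03 to 7.12 TPM), Uchl1 (1.21 to 2.81 TPM) and Ncam1 (6.9 to 29.7 TPM). Insm1 had a median of 0.0611 TPM (0 to 3.37 TPM), and Chga and Calca did not exceed 0.156 TPM in any sample. The fibroblast list summed to at most 1.11 TPM and the endothelial list to at most 1.33 TPM. The leukocyte list summed to 2.95 to 7.38 TPM in Control and 22.6 to 42.6 TPM in Restored samples, with Cd68 at 2 to 39.8 TPM, Lyz2 at 0.247 to 2.84 TPM, Ptprc at no more than 0.0814 TPM and Cd3e at no more than 0.159 TPM. One library stood apart on the genes described here. The sgPpia#3.2 Control sample of line 4711-18 had the lowest Tfrc, Fth1 and Ppia of all 18 samples and the second highest Slc7a11, and restoration values of members with sgPpia#3.2 are also given without it where they moved by over 1.5 times or a call changed.

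Ftl1, the ferritin light chain, averaged 10319 ± 2629 TPM (SD over the 18 samples) and ranked 1 of the 12828 tested genes, with 1.03% of all TPM. Fth1, the ferritin heavy chain that oxidises iron for storage, followed at 2962 ± 648 TPM. Next came Gpx4 (755 ± 146 TPM), Sat1 (427 ± 135 TPM), Slc3a2 (314 ± 89.6 TPM), Tfrc (107 ± 31.4 TPM), Acsl4 (34 ± 13.3 TPM), Aifm2 (17.3 ± 5.86 TPM), Slc7a11 (16.5 ± 17.3 TPM) and Gls2 (8.07 ± 3.9 TPM). Ftl1 exceeded Fth1, Fth1 exceeded Gpx4, Gpx4 exceeded Sat1 and Slc3a2 exceeded Tfrc in 18 of 18 samples. Aifm2 exceeded Slc7a11 in only 13 of 18 samples and Slc7a11 exceeded Gls2 in only 10 of 18, so the order of these 3 genes lay within the spread between samples. Annotated near-copies of the ferritin genes and of Gpx4, among them Ftl1-ps1, Fth-ps2 and Gpx4-ps2, have no row of their own in the table, so levels of Ftl1, Fth1 and Gpx4 may include reads from them. The single copy with a row, Fthl17-ps1, was listed at 0 in all 18 samples.

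**Figure D1:**
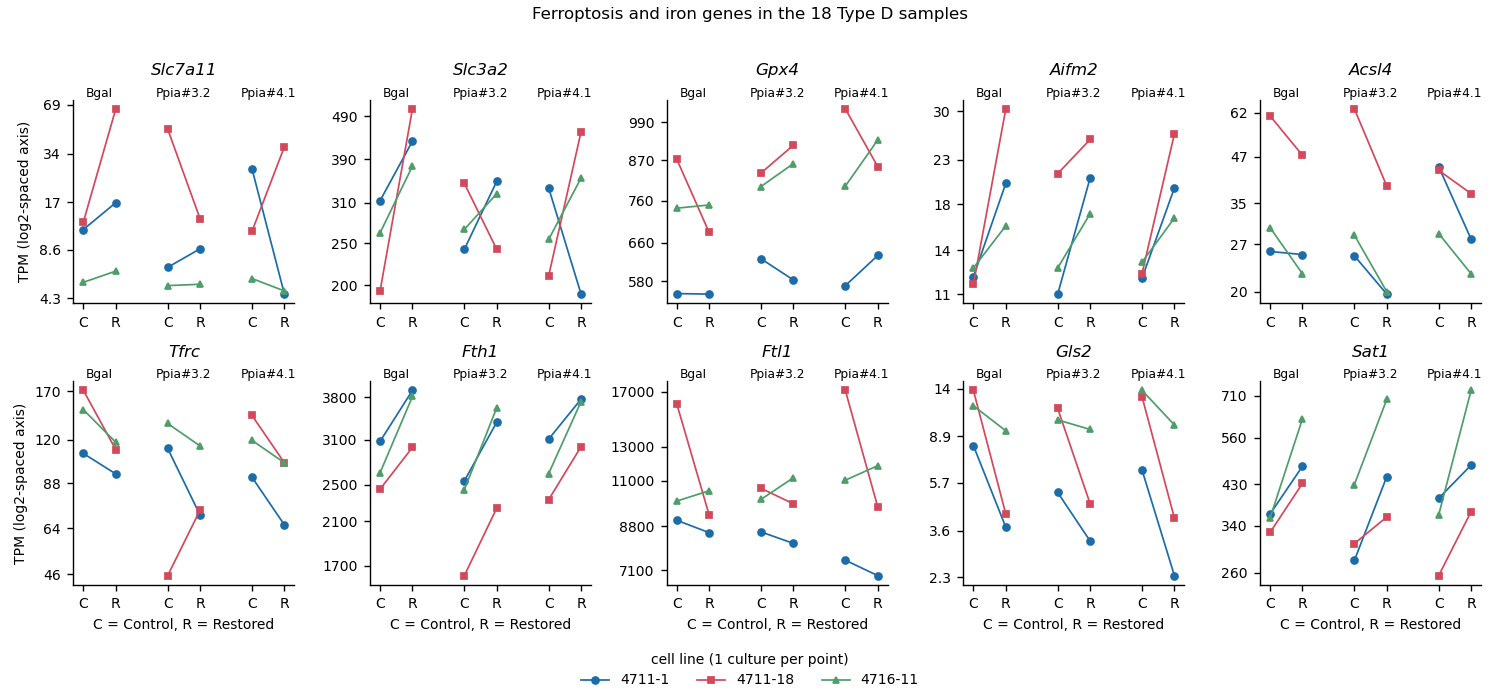
TPM of the 10 genes (log-spaced vertical axis, a separate range for each gene) in Control (C) and Restored (R) samples of each sgRNA, with 1 point per culture and a line joining the 2 cultures of 1 cell line and sgRNA. Fth1, Sat1 and Aifm2 climb in all 9 pairs, Gls2 and Acsl4 descend in all 9, and Slc7a11 and Slc3a2 cross.

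Whether restoring p53 altered these genes was asked first, separately for each sgRNA. On the log2(TPM + 1) scale, none of the 10 genes passed an adjusted p under 0.05 in any of the 3 comparisons when the 6 conditions were fitted without regard to cell line (limma). Among all tested genes, that fit called 9.86% higher and 3.96% lower after restoration in sgBgal cells, 7.62% higher and 2.39% lower in sgPpia#3.2 cells, and 7.16% higher and 3.14% lower in sgPpia#4.1 cells. With the cell line as a block, which takes the differences between lines out of the error, 4 genes were called higher and 1 lower in sgBgal cells, 2 higher in sgPpia#3.2 cells, and 3 higher and 1 lower in sgPpia#4.1 cells. That fit called 30.2% of all genes higher and 12% lower in sgBgal cells, 25.3% and 8.86% in sgPpia#3.2 cells, and 24.3% and 10.8% in sgPpia#4.1 cells, so the counts of members were close to the background. After scaling each sample by median-of-ratios factors as well, the block called 1 member higher and 1 lower in sgBgal cells, 0 and 2 in sgPpia#3.2 cells, and 1 and 2 in sgPpia#4.1 cells. The shares of all 12808 genes that passed the filter after scaling were 18.8% higher and 19.8% lower, 16.1% and 16%, and 16.5% and 16.8%. The median log2 fold change of the 10 genes was 0.14, 0.02 and -0.12 in the order sgBgal, sgPpia#3.2 and sgPpia#4.1, beside 0.19, 0.17 and 0.15 over all tested genes. The median of all genes was itself above 0, and the scaling brought it to between -0.01 and -0.00. Directions given from here on are those of the deposited TPM, and calls that scaling removed are named beside them. Fewer cells with a transcript and less transcript per cell cannot be told apart in such bulk samples.

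**Figure D2:**
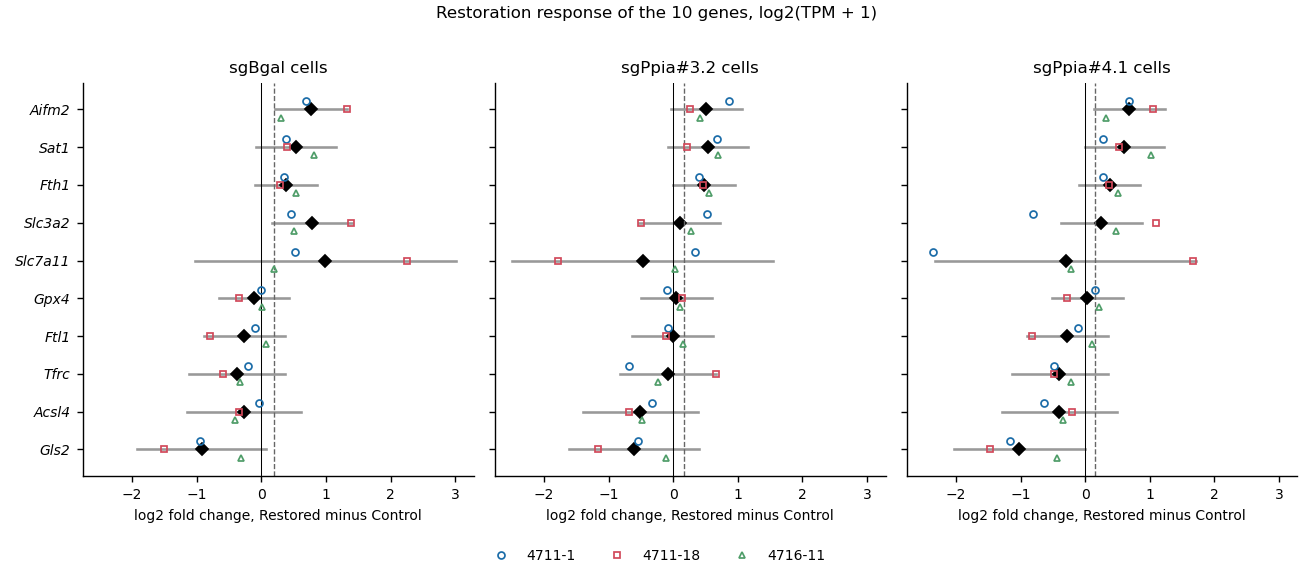
Log2 fold change after restoration (horizontal axis, Restored minus Control on the log2(TPM + 1) scale) of each gene with each sgRNA. Black diamonds and grey bars are the limma estimate and its 95% interval without the block, open symbols are the 3 cell lines, and the dashed line is the median of all tested genes. Symbols of Gls2 lie left of 0 and those of Fth1, Sat1 and Aifm2 right of 0 in every panel, and Slc7a11 has the widest interval.

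Cystine import was the most erratic of these functions. Slc7a11 encodes xCT, the transport subunit of the cystine and glutamate exchanger, and ranged 14.3-fold over the 18 samples, from 4.55 to 65 TPM. With the lines in the order 4711-1, 4711-18 and 4716-11, which is kept below, sgBgal cells held 11.5, 12.8 and 5.39 TPM in Control and 16.9, 65 and 6.33 TPM in Restored samples. With sgPpia#3.2 the values were 6.68, 48.6 and 5.14 TPM in Control and 8.72, 13.4 and 5.24 TPM in Restored samples. With sgPpia#4.1 they were 27.5, 11.2 and 5.69 TPM in Control and 4.55, 37.7 and 4.76 TPM in Restored samples. The high samples were thus 3 of line 4711-18 and 1 of line 4711-1, split evenly between Control and Restored, whereas line 4716-11 stayed between 4.76 and 6.33 TPM throughout. The log2 fold change after restoration was 0.99 (95% interval -1.03 to 3.01, adjusted p = 0.541) in sgBgal cells, -0.47 (-2.49 to 1.55, adjusted p = 0.831) in sgPpia#3.2 cells and -0.30 (-2.33 to 1.72, adjusted p = 0.892, -0.47 after scaling) in sgPpia#4.1 cells. Within sgPpia#4.1 cells it was -2.36 in line 4711-1 and 1.67 in line 4711-18. Without the library of line 4711-18 that stood apart, the value in sgPpia#3.2 cells was 0.48 (adjusted p = 0.786). With the cell line as a block, the 95% intervals narrowed to -0.30 to 2.28, -1.76 to 0.82 and -1.59 to 0.99 (adjusted p = 0.198, 0.569 and 0.72). No change of Slc7a11 with p53 was detectable at this spread in either fit.

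Slc3a2, the heavy chain CD98 that carries xCT and other amino acid transporters to the cell surface, was expressed at 191 to 509 TPM. It measured 313, 194 and 264 TPM in sgBgal Control samples and 429, 509 and 376 TPM in sgBgal Restored samples, 2 groups that did not overlap. The log2 fold change of 0.78 ± 0.29 (SE) had an adjusted p of 0.0913, which became 0.0479 with the cell line as a block and 0.118 once the samples were also scaled. With sgPpia#3.2 the values were 242, 343 and 269 TPM against 347, 242 and 325 TPM, and with sgPpia#4.1 they were 335, 210.3 and 255 TPM against 191, 451 and 353 TPM. The groups overlapped with both Ppia guides, with log2 fold changes of 0.10 (adjusted p = 0.894, -0.11 after scaling, 0.24 without the library that stood apart) and 0.25 (adjusted p = 0.662, 0.08 after scaling). Slc3a2 and Slc7a11 differed in the same direction between Control and Restored in lines 4711-1 and 4711-18 with every sgRNA.

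Among the 12828 tested genes, those whose levels followed Slc7a11 most closely over the 18 samples were Xpot, an exportin for transfer RNA (Pearson r = 0.97), Wars, the cytosolic tryptophan transfer RNA synthetase (r = 0.95), and Mei4, a meiotic recombination gene at 0 to 1.96 TPM (r = 0.94). These 18 points share 3 lines, so the coefficients are descriptions of likeness and carry no test. Xpot ranged from 36.7 to 89.6 TPM and Wars from 41.4 to 153 TPM, and both peaked in the same sgPpia#3.2 Control sample of line 4711-18. Neither passed the test after restoration in any of the 3 comparisons, with adjusted p from 0.686 to 0.849 for Xpot and from 0.714 to 0.981 for Wars. The coefficient of Slc7a11 with Slc3a2 was lower, at 0.548.

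**Figure D3:**
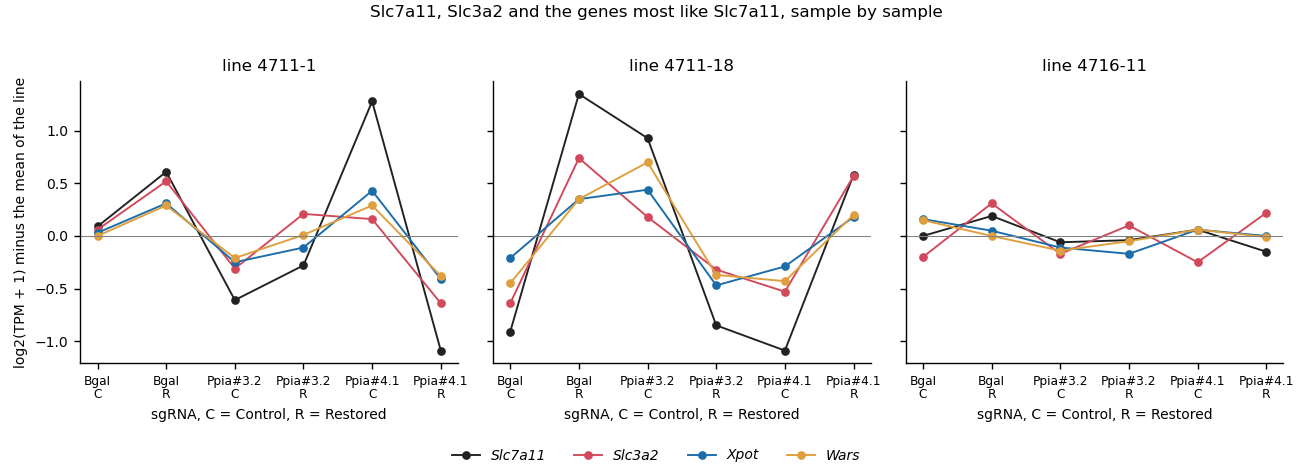
Level of Slc7a11, Slc3a2, Xpot and Wars in each sample as log2(TPM + 1) minus the mean of that gene in that cell line (vertical axis), by sgRNA and p53 state (horizontal axis), with 1 point per sample. In line 4711-18 the curve of Slc7a11 is high in sgBgal Restored, sgPpia#3.2 Control and sgPpia#4.1 Restored samples, and in line 4711-1 it is high in the sgPpia#4.1 Control sample. In line 4716-11 Slc7a11, Xpot and Wars stay between -0.17 and 0.19. Slc3a2 runs there from -0.25 to 0.31 and is higher in Restored samples with every sgRNA.

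The promoter of Slc7a11 is shown because its sequence holds a feature that the other members' windows lack. Its 250 bases before the transcription start lie on the minus strand at chr3:50443614-50443863 of GRCm38.p6 (RefSeq), upstream of the first exon of this protein-coding gene, and read as follows from 5′ to 3′, with matches to the amino acid response element TGATGNAA in capitals.
Slc7a11: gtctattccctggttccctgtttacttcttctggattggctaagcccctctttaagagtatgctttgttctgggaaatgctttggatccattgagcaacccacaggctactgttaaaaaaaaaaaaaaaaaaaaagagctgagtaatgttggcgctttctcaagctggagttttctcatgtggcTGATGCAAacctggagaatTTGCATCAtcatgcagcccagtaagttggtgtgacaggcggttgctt
The element is bound by ATF4 and its partners when amino acids run short. One match, TGATGCAA, lay 66 to 59 bases before the start on the coding strand, and the second, printed as TTGCATCA, lay 47 to 40 bases before it on the opposite strand. RefSeq windows of 300 bases, from 250 before to 50 after a start, were searched on both strands for 9 of the 10 genes, 14 windows in all. Slc7a11 alone held the element, which occurred in 3.97% of 32851 windows genome-wide and at 2 or more positions in 0.07%. The antioxidant response element TGACNNNGC (12.4% of all windows) and the p53 half-site (8.36%) had no match in the 14 windows. These are matches of letters and say nothing of binding.

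Gpx4, the selenoprotein that reduces phospholipid hydroperoxides, lay between 555 and 1035 TPM. Its log2 fold change after restoration was -0.11 (95% interval -0.66 to 0.43, adjusted p = 0.822, -0.33 after scaling), 0.05 (-0.50 to 0.60, adjusted p = 0.942, -0.15 after scaling, 0.13 without the library that stood apart) and 0.03 (-0.52 to 0.58, adjusted p = 0.966, -0.15 after scaling). In sgBgal cells it went from 556, 874 and 741 TPM to 555, 683 and 749 TPM, a log2 difference of -0.35 in line 4711-18 and of at most 0.01 in the other lines. With block and scaling, its adjusted p was 0.0756 in sgBgal, 0.424 in sgPpia#3.2 and 0.445 in sgPpia#4.1 cells. Gpx4 was lowest in line 4711-1 with every sgRNA and in both states.

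Aifm2, which encodes the ubiquinone reductase FSP1, had the lowest adjusted p of the 10 genes in sgBgal cells. It measured 12.1, 11.6 and 12.7 TPM in Control and 20.2, 30.4 and 16 TPM in Restored samples, without overlap. The log2 fold change was 0.77 ± 0.26 (SE, adjusted p = 0.061), called with the block (adjusted p = 0.00573) and with block and scaling together (adjusted p = 0.0221). Leaving out the library that stood apart, from another condition, brought the adjusted p without the block to 0.034. With sgPpia#4.1 the values were 12, 12.3 and 13.1 TPM against 19.7, 26.5 and 16.7 TPM, also without overlap, and the log2 fold change of 0.68 was called with the block (adjusted p = 0.0137) and with block and scaling (0.0374). With sgPpia#3.2 they were 11, 21.3 and 12.7 TPM against 20.8, 25.7 and 17.1 TPM. The 21.3 TPM came from the library that stood apart, the log2 fold change was 0.51 (adjusted p with the block = 0.0525, and 0.185 at 0.32 with block and scaling), and without that library it was 0.67 with a blocked adjusted p of 0.024. Scaling removed that call (0.47, adjusted p = 0.0749). Aifm2 was higher after restoration in 9 of 9 pairs of cultures.

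Acsl4, the ligase that loads arachidonic and adrenic acid for membrane phospholipids, was lower after restoration in 9 of 9 pairs but overlapped between states in every comparison. Control samples held 25.1 to 63.6 TPM, with a median of 30 TPM, and Restored samples 19.7 to 47.4 TPM, with a median of 25.3 TPM. Line 4711-18 was the highest line in 5 of the 6 conditions. Log2 fold changes were -0.26, -0.51 and -0.40 with adjusted p of 0.734, 0.509 and 0.614. The block alone gave adjusted p of 0.306, 0.0647 and 0.133, and the block with scaling, which gave -0.48, -0.70 and -0.57, gave 0.0521, 0.00988 and 0.0266. Without the library that stood apart, the value with sgPpia#3.2 was -0.10 (adjusted p = 0.905), and it was -0.57 (adjusted p = 0.0466) with block and scaling. That last fit also called Acsl4 lower in sgBgal (-0.48, adjusted p = 0.0437) and sgPpia#4.1 cells (-0.58, adjusted p = 0.0215).

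Iron uptake was represented by Tfrc, the transferrin receptor, at 45.6 to 171 TPM. In sgBgal cells it measured 109, 171 and 149 TPM in Control and 94.2, 112 and 118 TPM in Restored samples, a log2 fold change of -0.38 (adjusted p = 0.52, 0.335 with the block). It was -0.40 in sgPpia#4.1 cells (adjusted p = 0.543, 0.332 with the block), where 92, 143 and 119.7 TPM stood against 65.5, 102 and 102 TPM. In sgPpia#3.2 cells, 113, 45.6 and 135 TPM stood against 70.2, 72.8 and 115 TPM, and the log2 fold change was -0.08 (adjusted p = 0.929). The 45.6 TPM belonged to the library that stood apart, the lone case of 9 in which Tfrc was higher after restoration, and without it the estimate was -0.55 (adjusted p = 0.245), or -0.62 with the block (adjusted p = 0.0199). Tfrc was not called with block and scaling over all samples, at -0.60, -0.28 and -0.57 (adjusted p = 0.151, 0.525 and 0.182). Without that library it was called lower there with every sgRNA, at -0.60 in sgBgal (adjusted p = 0.0115), -0.83 in sgPpia#3.2 (adjusted p = 0.00585) and -0.57 in sgPpia#4.1 cells (adjusted p = 0.0163). The library was set apart after the data were seen, in part for its low Tfrc. Leaving it out removes the lone opposing pair and lowers the spread of Tfrc. The calls of Tfrc without it follow in part from that choice and are no separate support for a fall.

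The ferritin chains did not move together. Fth1 was higher after restoration in 9 of 9 pairs, at 3077, 2449.6 and 2648 TPM in sgBgal Control and 3927, 2991 and 3814 TPM in sgBgal Restored samples. With sgPpia#3.2 it held 2548, 1621 and 2444 TPM against 3374, 2238 and 3615 TPM, and with sgPpia#4.1 it held 3111, 2329.7 and 2639.5 TPM against 3766, 3002 and 3722 TPM. Control and Restored groups overlapped each time, and the differences within a line ran from 0.28 to 0.56 on the log2 scale. The log2 fold changes of 0.39, 0.48 and 0.38 had adjusted p of 0.271, 0.206 and 0.323 without the block and of 0.0162, 0.00667 and 0.0214 with it. After scaling as well, they were 0.17, 0.27 and 0.20 with adjusted p of 0.284, 0.0938 and 0.209, so the call rested on the unscaled TPM. Without the library that stood apart, the value with sgPpia#3.2 was 0.27 (adjusted p = 0.481), or 0.39 with the block (adjusted p = 0.0299).

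Ftl1 was higher after restoration in 3 of 9 pairs, all of line 4716-11. In sgBgal cells it went from 9066, 16052 and 9959 TPM to 8532, 9308 and 10475 TPM. With sgPpia#4.1 it went from 7455, 17137 and 11033 TPM to 6911, 9677 and 11847 TPM. The 2 Control samples of line 4711-18 at 16052 and 17137 TPM stood above the other 16, whose highest value was 11847 TPM. Log2 fold changes of -0.27, -0.01 and -0.28 had adjusted p of 0.601, 0.986 and 0.621, and 0.297, 0.967 and 0.297 with the block. With block and scaling they were -0.49, -0.22 and -0.45 (adjusted p = 0.0979, 0.483 and 0.131). Without the library that stood apart, the value with sgPpia#3.2 was 0.05 (adjusted p = 0.942). A ratio within a sample does not depend on how samples are scaled. Fth1 made up 25.3, 13.2 and 21% of the 2 ferritin transcripts in sgBgal Control and 31.5, 24.3 and 26.7% in sgBgal Restored samples. The share was higher after restoration in 9 of 9 pairs, with means of 19.9 ± 6.13% and 27.5 ± 3.67% (SD, n = 3, two-sided exact permutation p = 0.2) for sgBgal. They were 18.6 ± 4.91% and 24.1 ± 5.44% for sgPpia#3.2 (n = 3, exact permutation p = 0.3) and 20.2 ± 8.77% and 27.6 ± 6.63% for sgPpia#4.1 (n = 3, exact permutation p = 0.4). A test of 3 against 3 samples cannot go below 0.1, and the groups overlapped with every sgRNA. Within a line the share was higher by 7.65 ± 2.98, 5.55 ± 0.838 and 7.38 ± 3.8 percentage points (SD, n = 3 pairs each). The exact paired permutation p was 0.25 with each sgRNA, the smallest that 3 pairs allow.

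**Figure D4:**
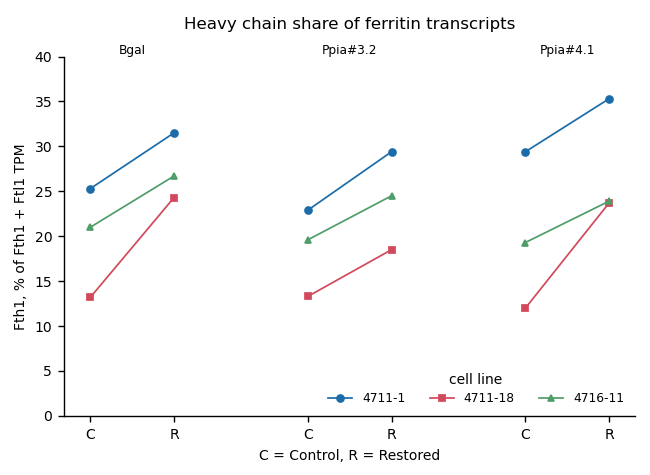
Fth1 as a percentage of the summed TPM of Fth1 and Ftl1 (vertical axis, from 0) in Control (C) and Restored (R) samples of each sgRNA, 1 point per culture, joined within a line. All 9 lines slope upward, and line 4711-18 has the lowest Control share with each sgRNA, from 12 to 13.3%.

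Gls2, the mitochondrial glutaminase counted among p53 targets, was lower after restoration in 9 of 9 pairs. It measured 8.13, 13.8 and 11.9 TPM in sgBgal Control and 3.72, 4.22 and 9.37 TPM in sgBgal Restored samples. With sgPpia#3.2 it held 5.19, 11.6 and 10.4 TPM against 3.26, 4.66 and 9.49 TPM, and with sgPpia#4.1 it held 6.44, 13 and 13.8 TPM against 2.34, 4.06 and 9.91 TPM. Line 4711-18 had the largest difference each time and line 4716-11 the smallest, at -0.32, -0.12 and -0.44 on the log2 scale. The log2 fold changes of -0.92, -0.60 and -1.02 had adjusted p of 0.216, 0.486 and 0.198 without the block. With the block, Gls2 fell in sgBgal (adjusted p = 0.00845) and sgPpia#4.1 cells (0.00587) and had an adjusted p of 0.0695 in sgPpia#3.2 cells, and with scaling added it was called in all 3 (0.00358, 0.0278 and 0.00286). The call with sgPpia#3.2 was lost without the library that stood apart (-0.60, adjusted p = 0.114). Spryd4 overlaps Gls2 on the opposite strand of the annotation (GENCODE M21), and strand use in counting is not given in the sources used here. Spryd4 went the other way, rising by 0.99, 1.03 and 1.00 on the log2 scale (adjusted p = 0.0171, 0.0164 and 0.019). The tested genes most like Gls2 over the 18 samples were Trap1, a mitochondrial chaperone (r = 0.97), Cmss1 (r = 0.92) and Ahcy, which hydrolyses S-adenosylhomocysteine (r = 0.92).

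Sat1, the acetyltransferase that starts polyamine breakdown, was higher after restoration in 9 of 9 pairs. It measured 363, 327 and 355 TPM in sgBgal Control and 476, 432 and 623 TPM in sgBgal Restored samples, which did not overlap. With sgPpia#3.2 it held 279, 307 and 429 TPM against 449, 357 and 696 TPM, and with sgPpia#4.1 it held 397, 256 and 361 TPM against 479, 368 and 732 TPM. Line 4716-11 reached the highest level after restoration with every sgRNA. The log2 fold changes of 0.53, 0.53 and 0.60 (adjusted p = 0.243, 0.282 and 0.212) were called with the block (adjusted p = 0.0262, 0.0313 and 0.0171) but not after scaling as well, when they were 0.31, 0.33 and 0.43 (adjusted p = 0.143, 0.136 and 0.0585). Nptxr (0.565 to 2.88 TPM, r = 0.96), Serpinb9d (0 to 3.03 TPM, r = 0.94) and B2m, the invariant chain of MHC class I (217 to 609 TPM, r = 0.93), had the most similar patterns.

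Ppia guides were then compared with sgBgal within each p53 state. None of the 10 genes was called, and among all 12828 tested genes the call rate was 0% in each of the 4 comparisons and in both tests of whether the restoration response differed between a Ppia guide and sgBgal (limma, adjusted p under 0.05). At an unadjusted p under 0.05 there were 311 genes with sgPpia#3.2 and 27 with sgPpia#4.1 in Control, 154 and 68 in Restored samples, and 31 and 18 for the differences in response, with no member among them. With the block there were 1628 and 162, 1108 and 424, and 175 and 80. Members among these were Fth1 in sgPpia#3.2 Control samples (-0.33, limma with block, unadjusted p = 0.0135, adjusted p = 0.306). The other was Gpx4 in sgPpia#4.1 Restored samples (0.27, 95% interval 0.02 to 0.52, unadjusted p = 0.0344, adjusted p = 0.969). The cell line block called 2 genes lower in sgPpia#3.2 Control samples, Ppia itself and Muc1, and 1 in sgPpia#3.2 Restored samples, again Ppia, and no member. Muc1 was named after its value was seen. In Restored samples Slc7a11 was lower than with sgBgal in 3 of 3 lines with both guides, by log2 differences of -1.10 (95% interval -3.12 to 0.92) and -0.94 (-2.96 to 1.09). Slc3a2 was likewise lower in 3 of 3 lines, by -0.53 (-1.16 to 0.10) and -0.48 (-1.10 to 0.15), and Gpx4 was higher in 3 of 3 lines, by 0.23 (-0.32 to 0.78) and 0.27 (-0.27 to 0.82). All 6 intervals are those without the block, where each adjusted p was 1. The restored sgBgal samples serve both comparisons, so the guides are not independent of each other here. For Fth1, Sat1, Aifm2 and Gls2, the difference in restoration response between a Ppia guide and sgBgal lay between -0.27 and 0.32, with 95% intervals reaching from -1.52 to 1.75 at the widest, those of Gls2. Without the library that stood apart, the differences with sgPpia#3.2 were -0.12, -0.06, 0.0013 and 0.52 in the same order, and that of Gls2 had a 95% interval from -1.02 to 2.06.

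Other genes of the same pathways were read from 6 lists. Their counts in sgBgal cells stand beside the shares of all tested genes given above, 9.86% higher and 3.96% lower without the block, 30.2% and 12% with it, and 18.8% and 19.8% with block and scaling. Of 12 tested genes of glutathione and selenoprotein supply, 3 rose and 0 fell in sgBgal cells, against 5 and 1 with the block and 3 and 2 with block and scaling. Gclc, which limits the rate of glutathione synthesis, went from 130.0 ± 37.9 to 400.2 ± 82.1 TPM (log2 fold change 1.64, adjusted p = 0.00836). Gss, the next enzyme, rose by 0.72 (adjusted p = 0.0232) and Secisbp2, needed to insert selenocysteine, by 0.66 (adjusted p = 0.0134). The list's median was 0.44 beside 0.19 over all genes in sgBgal cells, 0.13 beside 0.17 with sgPpia#3.2 and 0.21 beside 0.15 with sgPpia#4.1. Gclc, Gss and Secisbp2 were also the 3 genes called with each Ppia guide.

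Of 17 tested genes of lipid peroxidation and membrane lipids, 1 rose and 4 fell in sgBgal cells, with a median of -0.58. The block called 2 higher and 11 lower, and block and scaling 2 and 12. Scd2, a desaturase that makes monounsaturated fatty acids, went from 862 ± 87.8 to 249.8 ± 89.9 TPM (-1.84, adjusted p = 0.00299). Acsl1, an acyl-CoA ligase, fell by 1.24 (adjusted p = 0.00456) and Pebp1, a partner of 15-lipoxygenase, by 1.03 (adjusted p = 0.00548), while the lipoxygenase gene Aloxe3 rose from 0.304 ± 0.11 to 4.04 ± 0.981 TPM (1.93, adjusted p = 0.000204). The fourth gene that fell, Lpcat3, which places polyunsaturated chains on phospholipids, was named after its value was seen (-0.58, adjusted p = 0.0278).

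Of 23 tested genes of iron import, export, storage and sensing, 2 rose and 0 fell in sgBgal cells, with a median of 0.11. The block called 7 higher and 3 lower, and block and scaling turned this balance to 5 and 7. Hmox1, the heme oxygenase that frees iron from heme, went from 256 ± 75.7 to 1934 ± 1276 TPM (2.70, adjusted p = 0.00238), with 1871, 3241 and 691 TPM in the restored lines. Steap3, the ferrireductase of transferrin endosomes, went from 7.76 ± 3.13 to 28.3 ± 7.71 TPM (1.77, adjusted p = 0.00263). Both also rose with each Ppia guide. Slc40a1, the iron exporter ferroportin, was called with sgPpia#3.2 (-1.01, adjusted p = 0.0266) and sgPpia#4.1 (-1.19, adjusted p = 0.0103) and was at -0.81 (adjusted p = 0.0571) in sgBgal cells, a gene named after its values were seen. Its call with sgPpia#3.2 was lost without the library that stood apart (-0.88, adjusted p = 0.0822). Among 21 genes of the radical-trapping list, 0 rose and 2 fell in sgBgal cells, Pdss1 of ubiquinone synthesis by 1.30 (adjusted p = 0.0115) and Dhcr7, which uses up 7-dehydrocholesterol, by 1.28 (adjusted p = 0.00237), and the median was -0.12. Pdss1 serves to make a lipid and Dhcr7 uses a lipid up, so counts of this list give no direction for the defence. The block called 0 higher and 5 lower, and block and scaling 0 and 9. With sgPpia#3.2, Pts of tetrahydrobiopterin synthesis, named after its value was seen, was called higher (0.61, adjusted p = 0.0196), a call lost without the library that stood apart (0.50, adjusted p = 0.0689).

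Of 10 tested genes that link p53 to ferroptosis in other ways, 4 rose and 1 fell in sgBgal cells, with a median of 1.92, against 8 and 1 with the block and 7 and 1 with block and scaling. The list was drawn up from genes linked to p53, with earlier results known. Its counts and median therefore say nothing of ferroptosis itself. The cell cycle inhibitor Cdkn1a rose by 4.35, the p53 inhibitors Mdm2 and Mdm4 by 4.13 and 1.88, and the stress-response gene Sesn2 by 3.25, with adjusted p from 2.64e-07 to 0.00183. The gene that fell was Phlda2 (-1.70, adjusted p = 0.013), named here after its value was seen. Of 18 polyamine and glutamine genes, Smox, which oxidises spermine, rose by 1.74 (adjusted p = 0.0253) and Srm, spermidine synthase, fell by 0.75 (adjusted p = 0.0257), with a median of -0.05. The block called 3 higher and 3 lower, and block and scaling 3 and 4. Smox was at 0.61 (adjusted p = 0.48) with sgPpia#3.2, where the library that stood apart had the highest Control value, 163 TPM, and at 1.20 (adjusted p = 0.0877) without that library. Calls with sgPpia#3.2 that were also lost without it were those of Acsl1 (-0.57, adjusted p = 0.136), Scd2 (-1.12, adjusted p = 0.0974), Pebp1 (-0.78, adjusted p = 0.0623) and Srm (-0.73, adjusted p = 0.0657). All 17 genes named by rule from the lists kept their direction and their call in sgBgal cells with block and scaling together. No gene of the 6 lists was called between a Ppia guide and sgBgal.

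**Figure D5:**
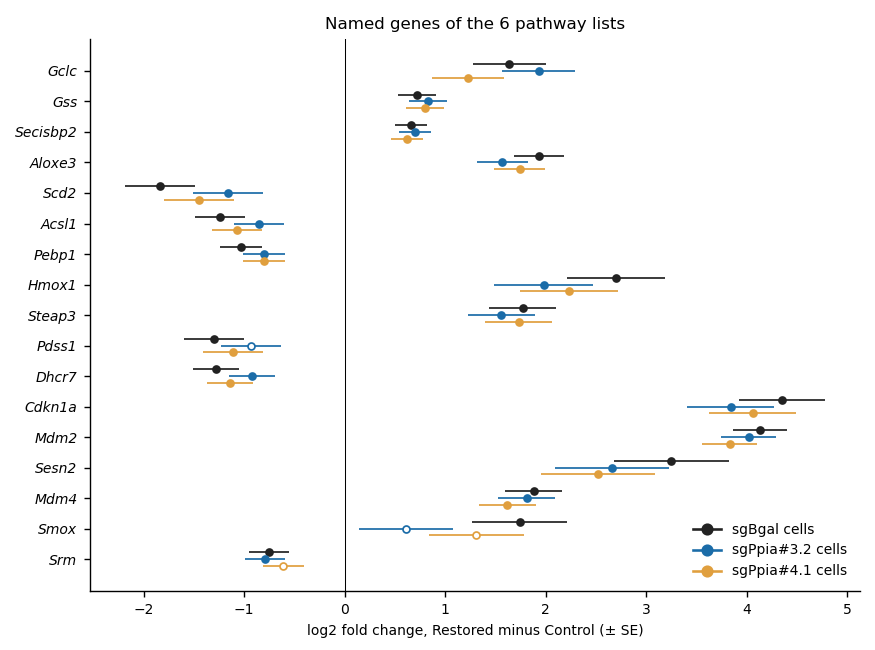
Log2 fold change after restoration (horizontal axis, Restored minus Control, error bars ± SE, n = 3 per group) of the 17 genes named by rule from the 6 pathway lists, for each sgRNA. Filled points passed an adjusted p under 0.05 without the block and open points did not. Cdkn1a and Mdm2 lie farthest right at about the same place for each sgRNA, and Scd2 farthest left of the genes drawn.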

How the data were processed

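The deposited table held TPM values that the authors had computed, with 25239 genes and 1 column for each of the 18 samples, and no per-sample column was left unused. The submitters' processing notes name bcl2fastq 2.17 and HISAT2. The methods of the study name Kallisto as well, and both mm10 and GRCm39 as builds, without saying which served these samples. The counting tool, the annotation and the use of strand are not given in the sources used here. TPM keep no depth, so no counting interval was computed. Between 16342 and 18752 genes were above 0 in Control samples and between 16665 and 17300 in Restored samples.

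The 12828 genes that reached 1 TPM in 3 or more samples were taken as log2(TPM + 1), with a pseudocount of 1, and fitted with limma 3.58.1 in R 4.3.3 as 6 group means over all 18 samples. Fold changes on this scale understate the change of genes with low TPM. Genes were called at a Benjamini-Hochberg adjusted p under 0.05 over all tested genes. Replicates were the 3 cell lines, with 1 culture each, so p-values measure the spread between lines. Samples of a line share its origin by their labels. Their deviations from the group means correlated at a mean r of 0.73 (lowest 0.58, 45 pairs), so the cell line was also fitted as a block. The mean between different lines and conditions was -0.36 (90 pairs). Centring each group of 3 lines on its mean forces that value below 0, so it is no separate comparison. Other alternatives were median-of-ratios scaling, a pseudocount of 0.1, no filter, a mean of at least 5 TPM, a fit on the compared groups alone, empirical Bayes moderation with trend and robust settings, a minimum log2 fold change of 1 and leaving out each line. Leaving out the library of line 4711-18 with sgPpia#3.2 in the Control state, the block together with this, with scaling or with both, and the paired test of the ferritin share were chosen after seeing the data. The fit was tested on simulated data.

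Named genes were the 10 members, Trp53 and Ppia, up to 4 called genes per pathway list with the largest change in sgBgal cells and the same direction in 3 of 3 lines, and the 3 genes most like Slc7a11, Gls2 and Sat1. The members and the lists were chosen with earlier results of these data known. Promoter windows came from RefSeq (GRCm38.p6) and overlapping genes from GENCODE M21. Python 3.11.15, numpy 2.4.6, scipy 1.17.1, pandas 2.3.3 and matplotlib 3.10.9 were used for the remaining values and plots. A marker gene of the neuroendocrine list is not reported here.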

Additional observations from a re-analysis of the deposited data

Results flagged for a closer look

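In the deposited TPM, without scaling, the response of Ftl1, the ferritin light chain, ran in opposite directions in different lines. Over the 3 sgRNAs, the log2 difference between Restored and Control samples averaged 0.11 in line 4716-11 (0.07 to 0.15) and -0.09 in line 4711-1 (-0.11 to -0.08), a gap of 0.20. In line 4711-18 it averaged -0.57 (-0.82 to -0.11), a gap of 0.68 to line 4716-11. Every sgRNA gave a positive value in line 4716-11 and a negative value in the other lines. None of the positive values exceeded the median of all tested genes, 0.19 in sgBgal, 0.17 in sgPpia#3.2 and 0.15 in sgPpia#4.1 cells. With scaling, the estimates over all lines were -0.49, -0.22 and -0.45 in that order. Values of single lines after scaling were not computed. The difference between lines was not tested, and the 3 sgRNAs of a line are not independent cultures of separate tumors.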

How the results depend on the processing

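The number of genes called after restoration was 1773 in sgBgal, 1284 in sgPpia#3.2 and 1322 in sgPpia#4.1 cells. In the same order it was 5407, 4378 and 4505 with a replicate block on the cell line, 4946, 4119 and 4268 with block and scaling, 5672, 4021 and 4774 with the block and without the library that stood apart, 5211, 3827 and 4559 with block and scaling and without that library, 859, 385 and 421 in a fit on the compared groups alone, and 980, 738 and 781 with a log2 fold change of at least 1 required. Leaving out 1 line gave 487 to 973, 229 to 943 and 283 to 823. The block called 3870 genes higher and 1537 lower in sgBgal, 3241 and 1137 in sgPpia#3.2, and 3122 and 1383 in sgPpia#4.1 cells, which scaling turned into 2413 and 2533, 2066 and 2053, and 2110 and 2158.

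Of the 10 members, 0 were called without the block. The block called 5, 2 and 4, block and scaling 2, 2 and 3, the block without the library that stood apart 5, 4 and 4, and block and scaling without it 4, 2 and 4. Each count of that last fit includes Tfrc, a gene on which the library was set apart. Without that library and without the block, 1 was called in sgBgal cells, Aifm2. Between sgPpia#3.2 and sgBgal, 0 genes became 2 in Control and 1 in Restored samples with the block, 1 in Control samples with block and scaling, and 1 and 1 with the block and without the library. The pairing changed no other call of a member. No member's direction was turned by the pseudocount, the filters, the fit on the compared groups alone or the trend and robust settings. As 0 members were called without the block over all samples, every reversal elsewhere concerns a value not called in that fit. The cause of the reversals was not tested.

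Scaling, alone or with the block, gave restoration values of -0.11 for Slc3a2 and -0.15 for Gpx4 with sgPpia#3.2 and -0.15 for Gpx4 with sgPpia#4.1. Against sgBgal in Control samples it gave 0.07 for Acsl4 and 0.02 for Sat1 with sgPpia#3.2, and 0.03 for Ftl1 and 0.02 for Fth1 with sgPpia#4.1. In Restored samples it gave 0.08 for Gls2, 0.04 for Sat1 and 0.07 for Aifm2 with sgPpia#3.2, and 0.02 for Acsl4, 0.07 for Ftl1, 0.06 for Fth1 and 0.03 for Aifm2 with sgPpia#4.1. The difference in response from sgBgal became 0.02 for Sat1 with sgPpia#3.2 and 0.03 for each of Tfrc, Ftl1 and Fth1 with sgPpia#4.1.

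Without the library that stood apart, restoration values with sgPpia#3.2 were 0.48 for Slc7a11 (0.04 with the block) and 0.05 for Ftl1. Against sgBgal in Control samples they were -0.59 for Slc7a11 (-0.15 with the block), -0.01 for Gpx4 and -0.04 for Aifm2, and -0.01 for Slc3a2 with the block. The difference in response was 0.16 for Acsl4, -0.17 for Tfrc (-0.24 with the block), -0.12 for Fth1 and 0.0013 for Aifm2, and 0.10 for Sat1 with the block. Block and scaling without that library gave restoration values for Gpx4 of -0.20 with sgPpia#3.2 and -0.15 with sgPpia#4.1, -0.06 for Slc7a11 between sgPpia#3.2 and sgBgal in Control samples and 0.03 for Fth1 with sgPpia#4.1, and differences in response with sgPpia#3.2 of -0.23 for Tfrc and 0.10 for Sat1. Its other reversals were among those that scaling gave, at the same values.

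Leaving out 1 line moved restoration values across 0 for Gpx4 in sgBgal cells (-0.18 to 0.01), for Slc7a11 (-0.88 to 0.18), Slc3a2 (-0.11 to 0.40), Tfrc (-0.45 to 0.22) and Ftl1 (-0.10 to 0.04) with sgPpia#3.2, and for Slc7a11 (-1.29 to 0.73), Slc3a2 (-0.17 to 0.78) and Gpx4 (-0.07 to 0.19) with sgPpia#4.1. Against sgBgal in Control samples it did so for Slc7a11 (-0.38 to 0.89), Slc3a2 (-0.17 to 0.42), Acsl4 (-0.05 to 0.01), Sat1 (-0.24 to 0.09) and Aifm2 (-0.07 to 0.41) with sgPpia#3.2, and for Slc7a11 (-0.06 to 0.63), Acsl4 (-0.27 to 0.35), Ftl1 (-0.09 to 0.12), Fth1 (-0.04 to 0.01), Gls2 (-0.19 to 0.06) and Sat1 (-0.16 to 0.07) with sgPpia#4.1. In Restored samples it did so for Gls2 (-0.07 to 0.07), Sat1 (-0.18 to 0.04) and Aifm2 (-0.10 to 0.07) with sgPpia#3.2, and for Acsl4 (-0.17 to 0.07), Ftl1 (-0.12 to 0.12), Gls2 (-0.27 to 0.01), Sat1 (-0.11 to 0.12) and Aifm2 (-0.11 to 0.01) with sgPpia#4.1. Differences in response crossed 0 for Gpx4 (-0.0021 to 0.29), Tfrc (-0.18 to 0.69), Sat1 (-0.15 to 0.09) and Aifm2 (-0.48 to 0.13) with sgPpia#3.2, and for Acsl4 (-0.28 to 0.10), Tfrc (-0.08 to 0.11), Ftl1 (-0.03 to 0.0040) and Fth1 (-0.05 to 0.02) with sgPpia#4.1.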
